A study of Mus musculus with 16 samples.

Results

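This part of the series concerns wild-type (WT) mouse fibroblasts of the embryonic line NIH/3T3. The regions described here are the places in their genome where DNA:RNA hybrids were called after RNase R digestion. They were obtained by merging the 2 peak lists of the WT RNase R+ immunoprecipitates wherever peaks overlapped or touched. This gave 449 regions, of which the 436 on chromosomes 1 to 19 and X are the subject. The same merging gave 59464 regions over the 4 groups of the series, with 5312 in WT RNase R-, 9896 in KO RNase R+ and 43820 in KO RNase R-. Presence, position and width of the 436 regions, and their fold enrichment and p in the WT RNase R+ lists, come from the measurement that selected them and are given as a description, without a test.

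The series is a DRIP-seq experiment (DNA:RNA hybrid immunoprecipitation and sequencing) with 16 samples, 8 immunoprecipitates with a peak list and 8 inputs that were not analysed here. The cells were WT or knockout (KO) cells, in which CRISPR-Cas9 had edited both copies of Xpo4 in the same way. Xpo4 encodes exportin 4, a receptor that carries cargo out of the nucleus. In all samples the DNA was first cut with MseI, DdeI, AluI and MboI, which are restriction enzymes with short sites, and mixed with E. coli DNA for normalization, which was not analysed here. It then received RNase R (RNase R+) or only the reaction buffer (RNase R-), before hybrids were pulled down with the antibody S9.6. Each combination of genotype and treatment had 2 replicates, and nothing in the labels says whether they came from separate cultures, so p-values measure the spread between these libraries, which may be technical. The KO cells are a single edited line, and the sources used here do not say whether they descend from 1 clone.

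An R-loop is a structure in which RNA pairs with 1 strand of the DNA and displaces the other. R-loops form where nascent RNA folds back onto its template, and purine-rich or G-rich RNA makes stable hybrids. RNase R is an exonuclease that degrades linear RNA from its 3′ end and spares circular RNA, so hybrids left after digestion are called ciR-loops in the study, for R-loops with circular RNA. Tandem repeats are stretches in which 1 unit is copied head to tail, from microsatellites with a unit of a few bases, through minisatellites, to the satellite DNA near centromeres and the TTAGGG arrays of telomeres. Telomeres are transcribed into the long noncoding RNA TERRA, which pairs with telomeric DNA.

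Most of the 436 regions lay in tandem repeats, and the sequences below show the main kinds. Each is a stretch around the summit of a region, read from the + strand of GRCm38, the build of the files. They were taken from regions called in every other library (Sos2), in no other library (Atp8a2, the chromosome 7 and X runs), in KO RNase R+ alone besides WT RNase R+ (2700054A10Rik and chromosome 11), from wide regions (Ulk4 and the chromosome 9 satellite) and from the longest run of regions (chromosome 6). Capitals mark the longest run of purines in the Atp8a2 sequence, whose region overlaps that gene. In the last they mark the sites of the 4 restriction enzymes, and in the others the first stretch as long as the repeat unit.
Sos2 intron, unit of 51 bp, chr12:69654100-69654303: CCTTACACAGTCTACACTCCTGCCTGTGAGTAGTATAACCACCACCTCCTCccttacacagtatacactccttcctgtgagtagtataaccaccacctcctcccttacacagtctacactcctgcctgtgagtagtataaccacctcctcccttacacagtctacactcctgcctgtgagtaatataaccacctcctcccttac
Purine run beside Atp8a2, chr14:60040523-60040672: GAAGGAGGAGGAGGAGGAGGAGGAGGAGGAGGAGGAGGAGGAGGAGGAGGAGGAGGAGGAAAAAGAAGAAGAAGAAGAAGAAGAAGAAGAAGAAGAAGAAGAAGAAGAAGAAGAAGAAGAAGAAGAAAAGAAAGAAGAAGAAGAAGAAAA
Chromosome 7 run, unit of 46 bp, chr7:64470883-64471066: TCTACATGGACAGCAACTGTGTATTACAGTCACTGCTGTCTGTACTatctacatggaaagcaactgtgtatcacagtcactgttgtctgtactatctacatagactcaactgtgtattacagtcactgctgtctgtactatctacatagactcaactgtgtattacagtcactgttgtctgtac
Chromosome X run, unit of 31 bp, chrX:170812987-170813141: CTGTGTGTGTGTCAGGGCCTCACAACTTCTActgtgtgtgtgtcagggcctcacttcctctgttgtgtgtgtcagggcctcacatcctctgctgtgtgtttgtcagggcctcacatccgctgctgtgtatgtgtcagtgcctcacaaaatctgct
2700054A10Rik intron, unit of 19 bp, chr17:13552794-13552945: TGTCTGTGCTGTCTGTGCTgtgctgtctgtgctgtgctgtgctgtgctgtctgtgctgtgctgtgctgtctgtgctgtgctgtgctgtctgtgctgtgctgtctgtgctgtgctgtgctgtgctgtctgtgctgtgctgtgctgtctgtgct
Chromosome 11, unit of 16 bp, chr11:5170207-5170350: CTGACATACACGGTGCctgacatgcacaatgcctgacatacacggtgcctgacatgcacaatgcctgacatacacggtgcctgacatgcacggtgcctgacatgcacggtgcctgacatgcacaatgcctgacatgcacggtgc
Ulk4 intron, unit of 112 bp, chr9:121226994-121227217: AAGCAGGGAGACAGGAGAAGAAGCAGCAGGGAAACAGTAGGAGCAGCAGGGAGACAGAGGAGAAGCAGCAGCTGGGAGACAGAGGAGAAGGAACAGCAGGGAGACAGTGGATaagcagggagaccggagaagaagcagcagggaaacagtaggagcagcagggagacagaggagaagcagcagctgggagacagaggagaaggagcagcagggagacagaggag
Chromosome 9 satellite, unit of 234 bp, chr9:3037879-3038112: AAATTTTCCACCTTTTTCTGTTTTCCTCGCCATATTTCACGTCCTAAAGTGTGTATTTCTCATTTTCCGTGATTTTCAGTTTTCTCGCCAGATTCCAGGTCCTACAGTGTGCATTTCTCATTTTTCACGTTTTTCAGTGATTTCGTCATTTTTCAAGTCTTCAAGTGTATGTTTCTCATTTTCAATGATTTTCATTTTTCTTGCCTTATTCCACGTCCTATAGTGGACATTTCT
Chromosome 6 run, not tandem, chr6:47671344-47671583: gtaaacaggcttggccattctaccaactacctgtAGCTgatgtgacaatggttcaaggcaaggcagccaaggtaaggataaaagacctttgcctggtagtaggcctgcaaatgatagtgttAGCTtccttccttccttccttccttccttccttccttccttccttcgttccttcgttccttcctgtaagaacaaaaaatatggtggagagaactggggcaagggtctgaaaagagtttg

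The 436 regions were narrow, with a median width of 429.5 bp, and 46 were wider than 1 kb. Widths ranged from 306 bp, the shortest peak in the lists, to 13575 bp. Both replicates called 153 regions (35.1%), replicate 1 alone called 99 and replicate 2 alone called 184. The median fold enrichment, the ratio of the signal at a summit to the level the peak caller expected there, was 7.95 in replicate 1 and 7.90 in replicate 2. The authors kept peaks with a q below 0.001. The lowest −log10 q that passed was 3.19 in replicate 1 and 3.01 in replicate 2. The lowest summit heights, not always of the same peaks, were 7 and 8 fragments.

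To see which of these regions were also called elsewhere, they were overlapped with the lists of the 6 other libraries, none of which was used to choose them. These lists held 2117 to 31920 peaks on the same chromosomes, against 260 and 340 in WT RNase R+. The order of list lengths was not that of the stated sequencing depth, which was lowest in WT RNase R-. A region counted as called where a peak covered at least 1 bp of it. In WT RNase R-, replicate 1 called 137 of the 436 regions (31.4%) and replicate 2 called 133 (30.5%). As a background, the same lists called 7.99% and 6.22% of the KO RNase R+ regions. In KO RNase R+, 162 (37.2%) and 145 (33.3%) were called, against 14.4% and 13.9% of the WT RNase R- regions. In KO RNase R-, 120 regions (27.5%) were called in each replicate, against 30.3% and 34.0% of the WT RNase R- regions. The share of WT RNase R+ regions was above its background in the first 4 libraries and below it in both KO RNase R- libraries, which had the longest lists. The backgrounds were not alike. The regions used for KO RNase R- shared its treatment, whereas those used for KO RNase R+ and WT RNase R- differed in genotype and treatment. The part of this choice in the order above and below was not tested. Width was not matched in this comparison either. The median was 429.5 bp in the WT RNase R+ regions, 299 bp in the WT RNase R- regions and 281 bp in the KO RNase R+ regions. Of 25594 windows of 430 bp placed evenly along the same chromosomes, the other lists covered between 0.0860% and 0.895%.

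**Figure D1:**
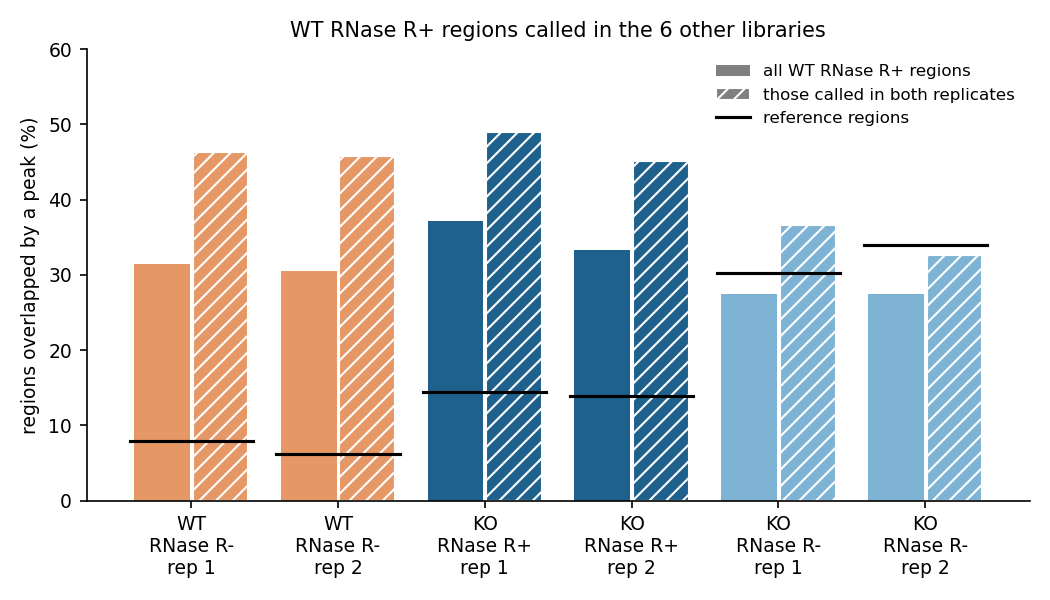
Share of WT RNase R+ regions (vertical axis, %) overlapped by a peak of each of the 6 other libraries (horizontal axis). Solid bars are all 436 regions, hatched bars the 153 called in both WT RNase R+ replicates, and black lines the background shares, for KO libraries over WT RNase R- regions and for WT RNase R- libraries over KO RNase R+ regions. The solid bars lie above the line in the first 4 libraries and below it in both KO RNase R- libraries. The background regions share the treatment of the KO RNase R- libraries, and differ in genotype and treatment from the other libraries.

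The 2 libraries of each group did not overlap those of the others in this share. KO RNase R+ (35.2 ± 2.76%, SD, n = 2) was 4.24 percentage points above WT RNase R- (30.96 ± 0.649%) and 7.68 points above KO RNase R- (27.5 ± 0%). KO RNase R- was 3.44 points below WT RNase R-. The peaks of WT RNase R- replicate 1 carry the name of replicate 2, although their values differ from it, and without that library the differences from WT RNase R- were 4.70 points for KO RNase R+ and −2.98 points for KO RNase R-. None of the 3 differences could pass a test, since an exact permutation test of 2 libraries against 2 cannot go below the two-sided p of 0.333 that each of them had, and after adjustment over 9 such tests p was 0.333 as well. Their order also depended on which regions were counted. In 72 regions less than 50% of the bases lay in tandem repeats, and 22 of these form 1 run on chromosome 6, described below. Over the 72, the difference of KO RNase R+ from WT RNase R- was −6.25 points and that from KO RNase R- −3.47 points. With the 2000 strongest peaks of each list the first was −8.14 points. That setting brought KO RNase R- to 17.4 points below WT RNase R-. Over the 153 regions in both WT RNase R+ replicates KO RNase R- was 11.4 points below WT RNase R- and 12.4 points below KO RNase R+, and KO RNase R+ was 0.980 points above WT RNase R-, with libraries that overlapped. Where a peak had to cover 50% of a region, KO RNase R+ was 1.49 points above WT RNase R- and 4.59 points above KO RNase R-. Over the 288 regions in a low local level, where the level expected by the caller was at most 3 times its background, KO RNase R- was 1.22 points above WT RNase R- and 3.99 points below KO RNase R+.

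No other library called 173 of the 436 regions (39.7%), and all 6 called 51 (11.7%). The exact 95% binomial interval of the first share, 35.1 to 44.4%, covers counting error only. It takes the regions as independent, although 167 of them lay in the runs described below, and may be too narrow. Of the regions called in both WT RNase R+ replicates, 45 of 153 (29.4%) were in no other list and 30 were in all 6. No RNase R- list of either genotype held 224 regions, among which 51 were called in KO RNase R+ and 13 in both of its replicates. A WT RNase R- list and no KO list held 32 regions, and a KO list but no WT RNase R- list held 99. Such counts are not set beside those of another group's regions here, so they do not show whether these shares are unusual. In the 30 regions called in all 8 lists, the median fold enrichment was between 8.56 and 12.6 in every library, above the median of each whole list (6.56 to 7.95). Calls in every list chose these regions, which favours high folds, so the values are a description.

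Tandem repetition separated these regions from those of the other groups. A base was counted as tandem where it lay in a stretch of at least 40 bp that matched itself at 80% or more after a shift of at most 300 bp. By this measure 364 of the 436 regions (83.5%) were at least 50% tandem, against 32.9% of WT RNase R- regions, 50.0% of KO RNase R+ regions, 33.3% of KO RNase R- regions and 1.102% of the evenly spaced windows. Per library, a mean of 77.6% and 79.1% of the bases of a peak were tandem in WT RNase R+, 35.1% and 38.8% in WT RNase R-, 44.5% and 47.7% in KO RNase R+, and 36.0% in both KO RNase R- replicates. The 2 WT RNase R+ libraries thus stood above all 6 others. The mean of WT RNase R+ (78.3 ± 1.00%, SD, n = 2) exceeded WT RNase R- by 41.4 points, KO RNase R+ by 32.2 points and KO RNase R- by 42.3 points, each with an exact permutation p of 0.333, the smallest possible, in 6 tests that were chosen after the data had been seen. Taking the 250 strongest peaks of every list, in place of lists of unequal length, left the means at 77.8% and 80.6% in WT RNase R+, against 43.9% and 44.5% in WT RNase R-, 34.2% and 40.9% in KO RNase R+, and 22.8% and 22.3% in KO RNase R-.

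**Figure D2:**
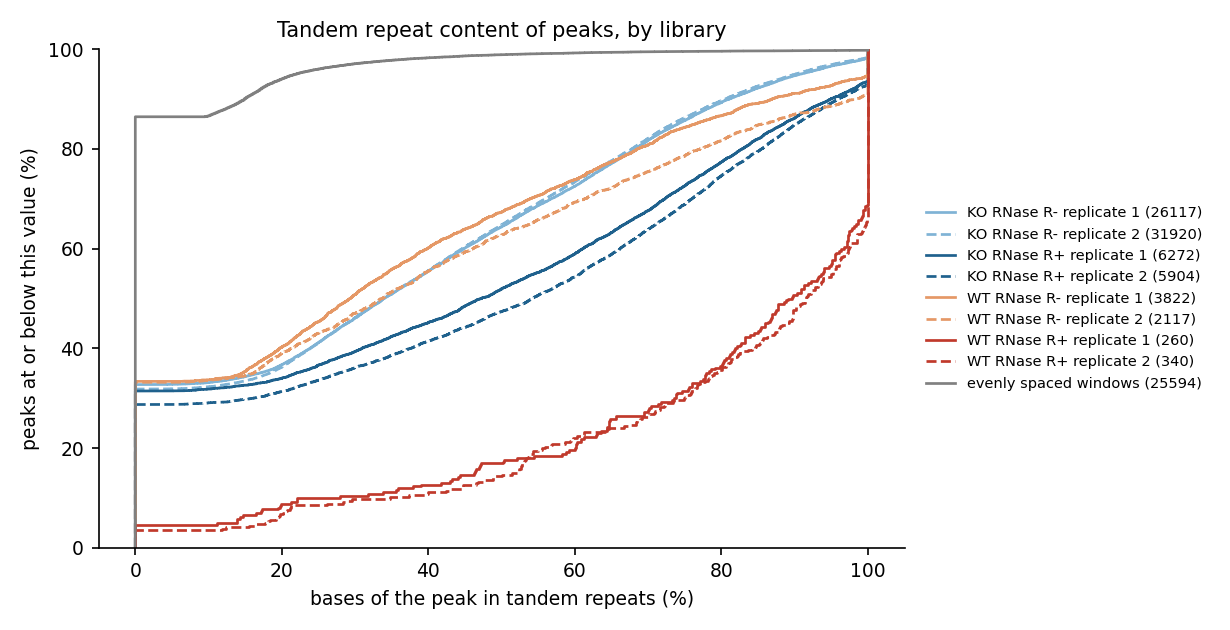
Cumulative share of peaks (vertical axis, %) against the share of their bases in tandem repeats (horizontal axis, %), 1 line for each library with its number of peaks and 1 for the evenly spaced windows. The 2 red WT RNase R+ lines lie to the right of all others, the 4 dark and light blue KO lines and the 2 orange WT RNase R- lines lie between, and 1.102% of the windows reach 50%.

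The regions were then grouped by the length of the repeat unit. A unit of 7 to 100 bp (minisatellite range) was found in 185 regions, a unit of 1 to 6 bp (microsatellite range) in 140, a unit over 100 bp in 29, TTAGGG arrays in 10, and 72 regions were not tandem. These classes were called elsewhere to very different degrees. All 10 TTAGGG regions were in all 6 other lists. Of the 185 minisatellite regions, WT RNase R- called 37 and 39, KO RNase R+ 27.03% and 22.7%, and KO RNase R- 13.5% and 11.4%, and 90 (48.6%) were in no other list. Of the 140 microsatellite regions, the 6 libraries called between 30.7% and 46.4%, and 43 (30.7%) were in no other list. Of the 29 regions with a unit over 100 bp, KO RNase R- called 20.7% in each replicate, and the other 4 libraries called 41.4% to 55.2%. The regions that were not tandem, with less than 50% of their bases in tandem repeats, were called at 30.6% to 40.3%. Of these, 31 were in no other list and 19 in all 6. The 72 included 22 regions of 1 run on chromosome 6, of which 1 was in no other list and 15 were in all 6. They also included 3 neighbouring regions on chromosome 1, each in all 6. Both sets are described below.

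**Figure D3:**
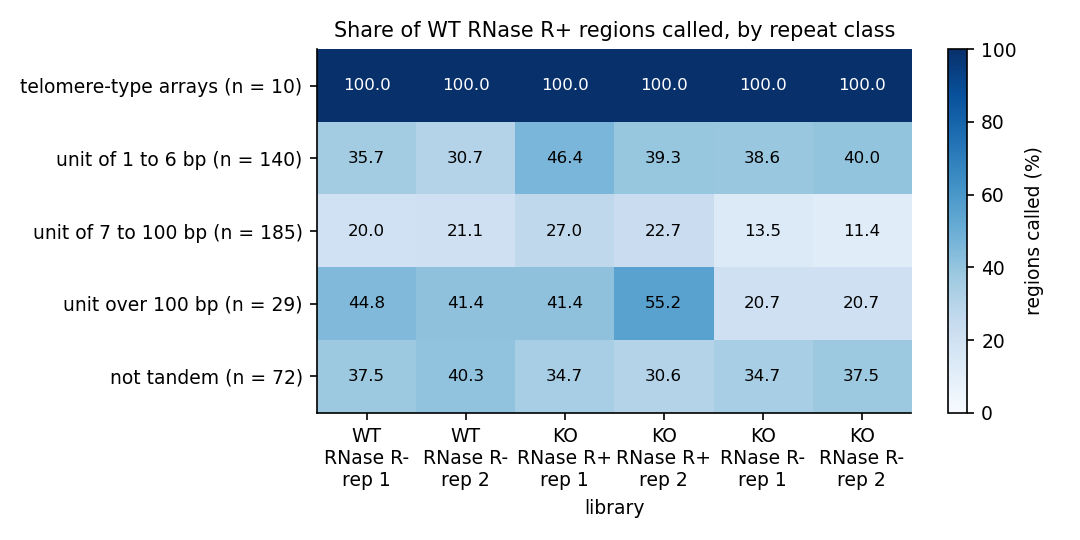
Share of WT RNase R+ regions called (colour and printed value, %) in each of the 6 other libraries (columns), by class of repeat unit (rows, with the number of regions). Telomere-type arrays stand at 100 in every column, and the regions with a unit of 7 to 100 bp have the lowest values in each, from 11.4 in KO RNase R- replicate 2 to 27.03 in KO RNase R+ replicate 1.

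The TTAGGG regions had the highest median fold of the 5 classes in WT RNase R+, 28.3 and 27.9, where the other classes had 6.95 to 10.3. They lay on 9 chromosomes and held 9 to 88 uninterrupted copies of the unit, the DNA to which shelterin proteins bind at chromosome ends. At 7 of the 10, the region ran to the last known base of the chromosome. The region at the end of chromosome 12 (chr12:120028501-120029034) had a fold enrichment of 32.9 and 32.3 in WT RNase R+, 54.5 and 39.3 in WT RNase R-, 37.9 and 46.5 in KO RNase R+, and 43.3 and 39.3 in KO RNase R-. The WT RNase R+ values were the 2 lowest there. The region at the end of chromosome 2 (chr2:182012720-182013236) showed the same order, with 28.9 and 27.9 in WT RNase R+ against 30.4 to 41.0 in the 6 others. At the end of chromosome 7 (chr7:145340924-145341475) the WT RNase R+ folds of 27.8 and 40.9 lay on both sides of the lowest other value, 40.2. Of the 9 TTAGGG regions in both WT RNase R+ lists, 5 had both of their WT RNase R+ folds below those of the 6 other libraries, and in 4 only 1 of them was. Folds of different lists are ratios to each list's own expected level, so these values were not tested between libraries.

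The other 3 TTAGGG regions were inside chromosomes. One lay in an intron of Ppp1r9a, which encodes the actin-binding scaffold neurabin (chr6:4923828-4924198), 1 on chromosome 3 (chr3:149052558-149052932), and 1 on chromosome X (chrX:170758138-170758525), 122774 bp from the last known base. The Ppp1r9a region had folds of 8.60 and 8.14 in WT RNase R+ and 23.9 to 54.3 in the other libraries, and the chromosome 3 region had 8.29 and 16.0 against 30.6 to 78.4. Both thus had their 2 lowest folds in WT RNase R+. In the whole genome there were 272 places with at least 4 TTAGGG copies in a row. Of these, 10 and 9 were called in WT RNase R+, 20 and 18 in WT RNase R-, 27 and 24 in KO RNase R+, and 30 in each KO RNase R- replicate. The arrays inside the WT RNase R+ regions had a median length of 434 bp, against 54 bp over all 272.

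Among the 150 regions with a unit of 1 to 6 bp, TTAGGG included, 19 different units were found, written here as the alphabetically first form over both strands and all phases. AAG was the unit of 40 regions and AGG of 30, both made of purines on 1 strand. AGAGGC and AGCAGG had 14 regions each, AAGGAG 11, AC 8 and AAAG 7. The AGAGGC regions (65.5% GC) were called nearly everywhere, in 13 and 14 of 14 by WT RNase R-, 13 and 6 by KO RNase R+, and 14 by each KO RNase R- replicate. The 11 AAGGAG regions were called in neither WT RNase R- replicate, in 2 and 0 by KO RNase R+ and in 3 and 1 by KO RNase R-. The 8 AC regions, which alternate purine and pyrimidine, were likewise in neither WT RNase R- list, with 3 and 2 in KO RNase R+ and 1 in each KO RNase R- list. WT RNase R- peaks held few arrays of these units anywhere. Of perfect arrays of at least 60 bp, they held 3.93% and 2.20% of 1273 for AAGGAG and 0.150% and 0% of 2666 for AC. The absence from so few regions is therefore not read as a result.

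Only a small part of the arrays of each unit was called in WT RNase R+. Of the 8941 perfect AAG arrays of at least 60 bp in the genome, 0.358% and 0.537% were in WT RNase R+ peaks, 2.74% and 1.43% in WT RNase R-, 8.03% and 9.70% in KO RNase R+, and 16.4% and 20.2% in KO RNase R-. For the 10998 AAAG arrays the values ran from 0.0273% and 0.0182% in WT RNase R+ to 18.96% and 24.5% in KO RNase R-. In AGAGGC, 1.11% and 1.62% of 1174 arrays were in WT RNase R+ peaks, and those inside the regions had a median length of 597 bp, against 138 bp over all. The AAG arrays inside the regions were hardly longer than the rest (85.5 against 78 bp). The lists differ widely in length, and the shares are given without a test.

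The strongest region called in all lists outside telomere-type DNA lay in an intron of Sos2, a guanine nucleotide exchange factor that activates Ras (chr12:69653892-69654424). Its array has a unit of 51 bp, and only 35.5% of its 24-base words occur elsewhere in the genome. The fold enrichment was 38.2 and 31.6 in WT RNase R+, 39.8 and 47.3 in WT RNase R-, 26.0 and 31.8 in KO RNase R+, and 32.7 and 29.2 in KO RNase R-. Both WT RNase R- values lay above all others, and the other groups overlapped in part. The region in an intron of Zswim6, a SWIM-type zinc finger gene (chr13:107858209-107860042, unit of 39 bp), was different. Its folds were 29.6 and 40.05 in WT RNase R+ and 8.51 to 13.9 in the 6 other libraries, with no overlap, which is a description since WT RNase R+ values chose it.

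The 5 regions with the highest folds among those in both WT RNase R+ lists and in no other list were all tandem. The first overlaps Atp8a2, a phospholipid flippase gene, and the processed pseudogene Gm9013 (chr14:60040389-60040860), with its summit within 1000 bp of a transcript start. It holds a run of 272 purines in the + strand and had folds of 15.2 and 16.0. Another lay in an intron of Sipa1l1, the gene of a Rap GTPase-activating protein (chr12:82282613-82283295, folds of 13.3 and 14.1, unit of 3 bp). The next was outside genes on chromosome 13 (chr13:57228248-57228575, 13.4 and 16.4, unit of 6 bp, a run of 133 purines or pyrimidines). The other two belong to the chromosome 7 and chromosome X runs described below, with 15.2 and 16.0 (chr7:64469019-64471218) and 13.9 and 13.0 (chrX:170810918-170813480). At 3 of the 5 the unit was 6 bp or shorter.

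Of the 13 regions called in both KO RNase R+ replicates and in no RNase R- list of either genotype, the 5 with the highest WT RNase R+ folds were again tandem. They were an exon of Gm21738 (chr14:19415702-19416347, unit of 234 bp), with folds of 12.1 and 10.3 in WT and 3.36 and 3.71 in KO RNase R+, and an intron of the long noncoding RNA gene Gm2682 (chr15:60149395-60149828, unit of 12 bp), with 8.95 and 11.4 against 6.397 and 7.94. An intron of the long noncoding RNA gene 2700054A10Rik (chr17:13552275-13553087, unit of 19 bp) had 7.86 and 10.9 against 2.39 and 2.48. The remaining ones lay outside genes, at chr2:171814831-171815586 (unit of 19 bp, 7.29 and 14.2 against 5.39 and 9.33) and chr11:5169557-5170438 (unit of 16 bp, 14.0 and 6.23 against 6.77 and 11.8). At both of these intergenic regions the values of the genotypes overlapped. The WT RNase R+ folds ranked all 5 regions, and folds are ratios to each list's own expected level. The values are therefore a description and do not compare the genotypes.

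The widest regions were satellite DNA. At the proximal end of the assembled sequence of chromosome 9, 5 regions between chr9:2999996 and chr9:3038308, with a unit of 234 bp, overlapped predicted genes such as Gm10719, Gm10717 and Gm26870. The unit length is that of the major satellite, the main repeat of mouse pericentromeric heterochromatin. The widest, 13575 bp (chr9:3009216-3022790), had folds of 15.1 and 13.6 in WT RNase R+, 2.34 and 2.66 in WT RNase R-, and 3.72 and 4.27 in KO RNase R+. The next, 13129 bp (chr9:3023269-3036397), had 14.9 and 13.0, then 2.15 and 2.28, then 3.49 and 4.01. The region at the promoter of Gm10715 (chr9:3036713-3038308) had 17.7 and 17.4, then 2.12 and 1.72, then 3.21 and 3.46. All 5 were called in both replicates of these 3 groups and in neither KO RNase R- replicate. With the region at Atp8a2, 4 of them were also the strongest regions with a summit in a promoter or exon. Next in width was a region in an intron of Ulk4, a gene of the Unc-51-like kinase family (chr9:121223052-121229041, 5990 bp, unit of 112 bp), with 33.0 and 25.1 in WT RNase R+, no peak in WT RNase R-, 5.37 and 5.82 in KO RNase R+, and 8.14 and 5.80 in KO RNase R-. Reads of such arrays fit many places, and the authors removed reads without a unique position.

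The regions also held few sites of the restriction enzymes. MseI cuts at TTAA, DdeI at CTNAG, AluI at AGCT and MboI at GATC, each site reading the same on both strands. The 436 regions held a mean of 2.74 such sites per kb, against 10.2 in WT RNase R- regions, 5.96 in KO RNase R+ regions, 6.45 in KO RNase R- regions, 18.3 in the evenly spaced windows and 18.5 in the genome. No site was found in 158 regions (36.2%), and in 0.258% of the windows. The restriction fragment around a summit, measured between the nearest sites of the reference genome, had a median length of 1010.5 and 1022.5 bp in the WT RNase R+ libraries. It was 215 and 232 bp in WT RNase R-, 262 and 270 bp in KO RNase R+, 237 and 243 bp in KO RNase R-, and 90 bp in the windows. Fragments over 300 bp held 90.4% and 91.2% of the WT RNase R+ summits, against 28.2% and 31.6%, 35.4% and 38.8%, and 20.6% and 23.1% in the other groups. The WT RNase R+ mean (90.8 ± 0.560%, SD, n = 2) was 60.9, 53.7 and 69.0 points above theirs, with an exact permutation p of 0.333 each, the smallest possible.

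The difference was present in tandem peaks and in peaks that were not tandem. Peaks of the second kind could still hold repeats. In the 72 regions that were not tandem, 24-base words found more than once in the genome made up a mean of 53.8%. Of tandem peaks, 94.4% and 95.5% in WT RNase R+ lay on fragments over 300 bp, against 54.8% and 58.5% in WT RNase R-. Of peaks that were not tandem, 70.5% of 44 and 65.3% of 49 did, against 15.2% of 2570 and 15.6% of 1327. The chromosome 6 run described below, which had no tandem region, held 16 and 17 WT RNase R+ peaks. The shortest peak of a list, which the caller sets to its estimate of the fragment length, was 306 and 307 bp in WT RNase R+, 249 and 247 bp in WT RNase R-, 233 bp in both KO RNase R+ replicates, and 211 and 214 bp in KO RNase R-. The part of fragment length in which regions were called was not tested.

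**Figure D4:**
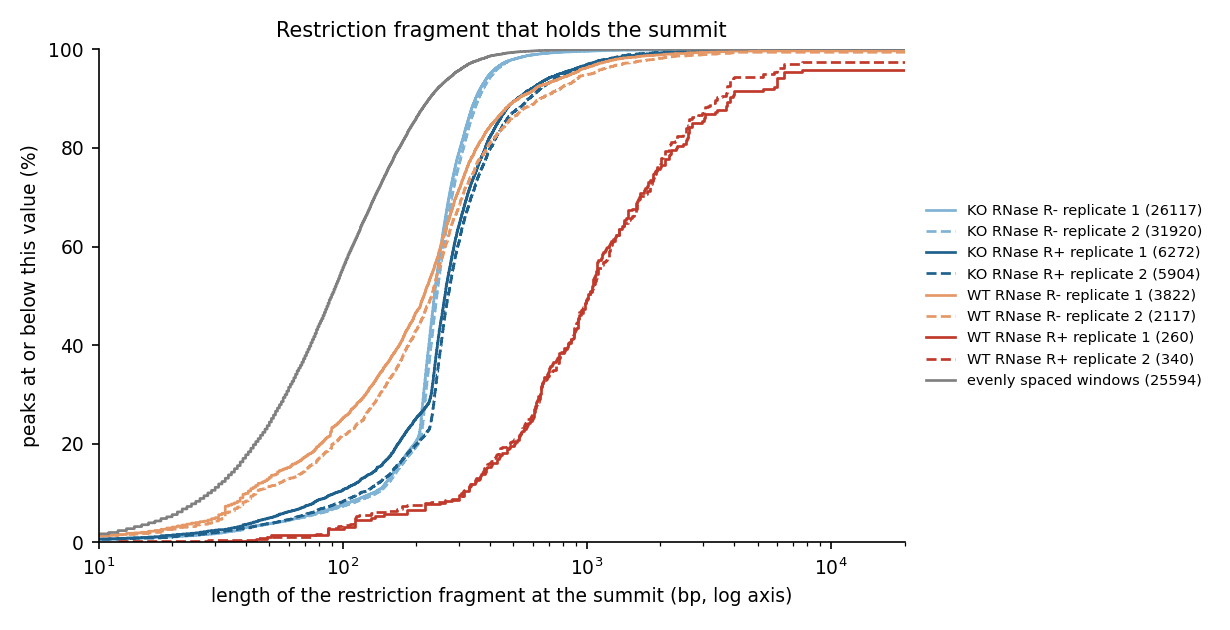
Cumulative share of peaks (vertical axis, %) against the length of the restriction fragment that holds the summit (horizontal axis, bp, log scale), 1 line for each library and 1 for the evenly spaced windows. The 2 red WT RNase R+ lines reach 50% near 1010.5 and 1022.5 bp, the 6 other libraries between 215 and 270 bp, and the windows at 90 bp.

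Base composition differed less. The mean GC content of a peak was 49.3 ± 0.248% in WT RNase R+ (SD, n = 2), 43.7 ± 0.590% in WT RNase R- and 45.9 ± 0.885% in KO RNase R+, with 41.8% in the genome. The difference was 5.70 points from WT RNase R- and 3.42 points from KO RNase R+, with no overlap of libraries and an exact permutation p of 0.333 in both. With the 250 strongest peaks of each list these differences were 0.945 and 1.89 points, and over peaks that are not tandem the second was 0.578 points, with libraries that overlapped (exact permutation p of 0.667). Words of 24 bases found more than once in the genome made up 76.5 ± 0.291% of a WT RNase R+ peak, 54.1 ± 4.07% of a WT RNase R- peak and 52.1 ± 1.91% of a KO RNase R+ peak (exact permutation p of 0.333 for both differences, of 22.4 and 24.4 points). Among the 250 strongest peaks of each list the first of these differences turned to −1.62 points and the second was 9.68 points, and over peaks that are not tandem the first was 11.3 points. Both measures were also higher in KO RNase R+ than in KO RNase R-, by 2.70 points in GC content and by 5.98 points in repeated words. Among the 250 strongest peaks the GC content was instead lower, at 48.3% and 47.2% in KO RNase R+ against 53.1% and 53.6% in KO RNase R-. Repeated words stayed higher there, at 65.0% and 72.1% against 47.3% and 44.4%. The difference between genotypes was not tested.

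A run of at least 30 purines or 30 pyrimidines was present in 173 regions (39.7%), fewer than among WT RNase R- regions (46.6%), KO RNase R+ regions (56.0%) and KO RNase R- regions (54.9%), and more than among the windows (5.12%). The median imbalance of G over C or the reverse, as a share of all G and C, was 0.515 in the regions, 0.386 in WT RNase R-, 0.562 in KO RNase R+, 0.401 in KO RNase R- and 0.0901 in the windows. A pattern of 4 runs of at least 3 G with 1 to 7 bases between them, on either strand, was found in 41 regions (9.40%), beside 8.92%, 11.1% and 12.8% in the other groups and 7.14% in the windows.

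Genes held about the share of regions that they hold of the genome. By the summit, 22 regions (5.05%) lay in a promoter, within 1000 bp of a transcript start, 6 (1.38%) in an exon, 169 (38.8%) in an intron and 239 (54.8%) elsewhere, where the genome has 6.13%, 3.27%, 39.4% and 51.2%. In KO RNase R+ the promoter share was 13.6% and 11.3%, and in WT RNase R- 6.88% and 8.22%. Summits in no gene body made up 55.9 ± 1.25% of WT RNase R+ peaks (SD, n = 2), 54.1 ± 0.983% of WT RNase R- peaks and 47.4 ± 3.20% of KO RNase R+ peaks. The 8.52 points from KO RNase R+ and the 1.76 points from WT RNase R- had an exact permutation p of 0.333 each. The smaller difference turned to −1.64 points with protein-coding genes alone and to −2.48 points over peaks with a low expected level, and was 0.255 points without chromosome X. Over peaks that are not tandem the differences were 37.3 points from KO RNase R+ and 24.7 points from WT RNase R-. Only 44 and 49 WT RNase R+ peaks were not tandem, and the chromosome 6 run described below, which had no tandem region, held 16 and 17 peaks. Its regions overlap no gene of the GENCODE annotation used here, but 12 of its 22 overlap a RefSeq gene. Over the 250 strongest peaks the differences were 16.6 and 4.00 points.

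Protein-coding genes contained 169 regions (38.8%), where these genes cover 40.5% of the sequence. Genes longer than 500000 bp contained 25 regions (5.73%, against 7.69% of the sequence), in 18 genes such as Dmd, which encodes dystrophin, and Magi2, which encodes a synaptic scaffold. Long noncoding RNA genes contained 31 (7.11%, against 7.39%), pseudogenes 9 (2.06%, against 1.07%) and zinc finger protein genes 3 (0.688%, against 0.525%). The olfactory and vomeronasal receptor genes had 1 region (0.229%, against 0.572%), at the pheromone receptor gene Vmn1r4. None of the regions lay in a cytosolic ribosomal protein gene, which together cover 0.0520% of the sequence, too little for a count of 0 to be read as a result. None lay in Hipk3, Specc1, Adarb1, Nfix or Wwc1, the host genes of circular RNAs that the study examined, which cover 0.0275%.

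The regions were bunched along the chromosomes. Of the 416 gaps between neighbours, 65 (15.6%) were at most 1 kb and 114 (27.4%) at most 100 kb. In the other groups, which have far more regions on the same chromosomes, gaps of at most 1 kb made up 1.66% (WT RNase R-), 2.74% (KO RNase R+) and 3.31% (KO RNase R-) of all gaps. Joining neighbours at most 100 kb apart gave 53 runs of 2 or more that held 167 regions (38.3%), while 269 stood alone. Regions of 1 run mostly share their repeat and are not independent, and counted with 1 region for each run the share in no other list was 36.6%. The number of regions was highest on chromosomes 3 (39), 6 (36), 9 (33) and 7 (31). Per Mb, chromosomes 9 (0.265) and 15 (0.2595) led, followed by 3 (0.244) and 6 (0.240). With each run counted as 1, chromosome 3 had 33, chromosome 5 had 27, chromosome 15 had 23 and chromosome 4 had 22, while chromosomes 6, 7 and 9 had 15, 18 and 18. In the last Mb of the chromosomes lay 22 regions (5.05%), against 0.678% of WT RNase R- regions, 0.566% of KO RNase R+ regions and 0.646% of KO RNase R- regions, and 15 of the 22 were on chromosome X.

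**Figure D5:**
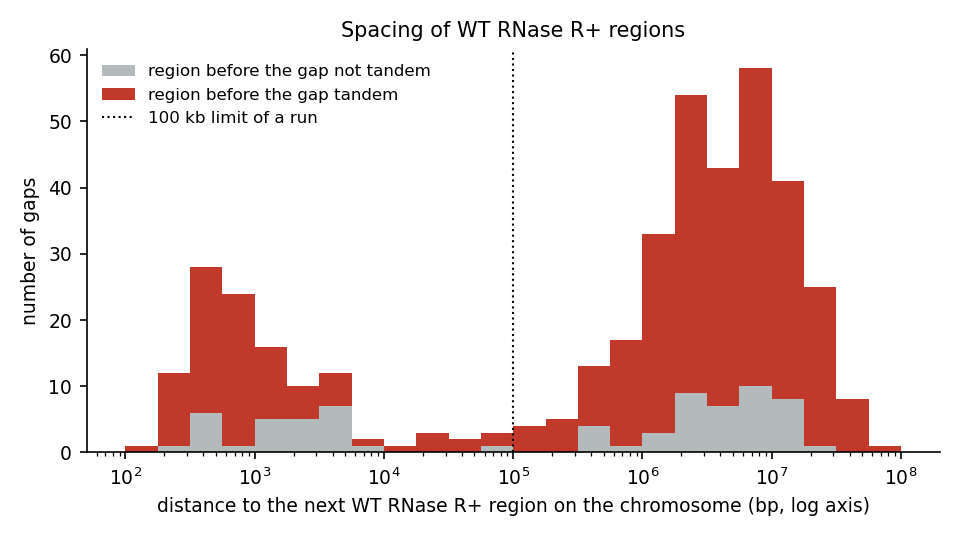
Number of gaps (vertical axis) by the distance from a WT RNase R+ region to the next one on the same chromosome (horizontal axis, bp, log scale), coloured by whether the region before the gap was tandem. The 416 gaps fall into 2 humps, 105 of them at most 10 kb, and the dotted line marks the 100 kb limit within which regions were joined into a run.

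The longest run was on chromosome 6 (chr6:47653943-47777478) and held 22 regions, 11 of them in both WT RNase R+ lists. It was the one long run without tandem regions by the measure used here, and yet nearly all of its 24-base words occur more than once in the genome (median 100%). The annotated 4.5S RNA gene Rn4.5s, a rodent small noncoding RNA related to B1 repeats that is made by RNA polymerase III, lies at chr6:47654921-47655094. Sequences matching it occurred 16 times in the run, with a median identity of 100% and a median spacing of 4337.5 bp. The regions fell into 2 sequence groups of 14 and 8. Starts were a median of 4324 bp apart within the first group, with a smallest spacing of 880 bp, and a median of 8694 bp apart within the second, with a smallest spacing of 4319 bp. The lowest distance from a copy was 0 and the largest 780 bp. Of the 22, 3 overlapped a copy. The other libraries called most of the run, with 19 and 21 regions in WT RNase R-, 18 and 16 in KO RNase R+, and 18 and 20 in KO RNase R-, and 15 regions were in all 6. The median fold at its regions was 5.42 and 5.57 in WT RNase R+ and 5.41 to 7.42 in the other libraries.

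The run at the distal end of chromosome X (chrX:170758138-170881309) was called in the opposite way. It held 15 regions of up to 2563 bp, 2 TTAGGG regions and 13 regions of 1 family with a unit of 31 bp. None of the 13 was called in any of the 6 other libraries, while 9 and 12 were called in WT RNase R+. The run on chromosome 7 (chr7:64466876-64496359), held 11 regions of 1 family with a unit of 46 bp, the widest 4735 bp. WT RNase R+ called 11 and 10 of them, KO RNase R+ replicate 1 called 2, and none was called in the other 5 libraries. Neither run overlapped an annotated gene. The regions of each family share their sequence and are not independent of each other.

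On chromosome 1, 3 regions (chr1:24612663-24615284) overlap pseudogenes that are nuclear copies of mitochondrial DNA, such as Gm10925 and Gm28437. Each was called in 1 WT RNase R+ replicate, with folds of 2.59, 2.83 and 2.43, the first and the last in replicate 2. In the other lists 1 peak spanned all of them, with folds of 40.6 and 41.1 in WT RNase R-, 165 and 190 in KO RNase R+, and 134 and 127 in KO RNase R-. Reads from mitochondria and from these copies were not told apart here.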

How the data were processed

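Peak lists of 8 S9.6 immunoprecipitates, 2 for each genotype and treatment, were analysed. According to the methods, reads were aligned to GRCm38 by the authors with Bowtie2. Duplicates, unmapped reads, reads with over 3 mismatches and reads that fit more than 1 place were then removed, and MACS2 was run on each replicate at a q of 0.001. The control library is not given in the sources used here. The deposited fold enrichment is a ratio of summit signal to expected level, with a pseudocount of 1 on both. Values of p and q are deposited as −log10, and the score in the deposited lists, which the caller makes from the −log10 q, was not used. The submitters' processing notes name SAMtools 1.1. The lists hold no read counts or library sizes, and the read totals stated by the study entered no computation. By those totals WT RNase R- had the fewest uniquely mapped reads, although its lists were longer than those of WT RNase R+.

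Regions were merged with bedtools 2.31.1. The expected level was recovered from the deposited fold and p as the level at which a whole summit height satisfies both under a Poisson distribution, which succeeded for all 77297 peaks. Genes came from the GENCODE annotation of GRCm38, the 4.5S RNA gene from RefSeq (GRCm38.p6), and copies of it were found with blastn 2.17.0. Sequence features were computed with Python 3.11.15, numpy 2.4.6 and pysam 0.24.0. Code was tested on simulated data (429 of 429 merged regions, 600 of 600 overlaps, 2000 of 2000 heights, 300 of 300 arrays and 0 of 300 sequences of chance bases called tandem). Groups were compared with exact permutation tests, two-sided, over libraries, adjusted by the Benjamini-Hochberg procedure over 9 tests.

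Named regions were in both WT RNase R+ lists and ranked by the lower of their folds: the 5 highest in all 6 other lists, in none, in both KO RNase R+ and no RNase R- lists, and in promoters or exons, then the 3 longest runs and the 3 widest. The regions, gene lists and tests were chosen with earlier results of these data known, and the tandem repeat measures, the fragment lengths, the TTAGGG regions inside chromosomes and the chromosome 1 regions were chosen after the data had been seen. Alternatives concerned the overlap, the threshold, list size, replicates, word length, gene set and pairing.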

Additional observations from a re-analysis of the deposited data

Results flagged for a closer look

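Besides the 436 regions, 13 merged WT RNase R+ regions lay on sequences that entered no comparison: 3 on the mitochondrial genome, 1 on chromosome Y and 9 on unplaced or unlocalised sequences. They were noted because they are signal outside the chromosomes analysed. All 13 were called in at least 2 of the 6 other libraries, and 7 in all 6, whereas 39.7% of the 436 regions were in no other list. The widest, 24816 bp, was on an unplaced sequence and was called in 4 other libraries. The cause of the difference was not tested.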

How the results depend on the processing

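Of 132 alternative values of the 11 results recomputed, 7 reversed their direction. KO RNase R- minus WT RNase R- went from −3.44 to 1.22 points over regions whose expected level was at most 3 times background. KO RNase R+ minus WT RNase R- went from 4.24 to −8.14 with the 2000 strongest peaks and to −6.25 over regions that are not tandem, and KO RNase R+ minus KO RNase R- from 7.68 to −3.47 over the latter. The difference in repeated words from WT RNase R- was −1.62 with the 250 strongest peaks, and that in summits outside genes −2.48 at low expected levels and −1.64 with protein-coding genes. The causes were not tested. GC content kept its direction under every alternative, from 0.945 to 7.29 points against WT RNase R- and from 0.578 to 4.91 against KO RNase R+.
The replicate numbers in the labels did not pair the libraries: the log2 ratios of same-numbered replicates correlated at −0.276 to 0.0592 over the 59 to 70 regions called in all 4 libraries of a pair of groups. With a replicate block, differences such as 5.70 points in GC content and 22.4 points in repeated words stayed the same by construction, and p was 0.5, the smallest that the exact sign-flip test of 2 pairs allows. Crossing the numbers of WT RNase R+ and WT RNase R- gave the same p of 0.5 for all 3 measures compared between them. Leaving out KO RNase R+ replicate 1 brought KO RNase R+ minus WT RNase R- to 2.29 points, and leaving out WT RNase R+ replicate 2 brought it to 2.88. KO RNase R- minus WT RNase R- was −5.38 without WT RNase R+ replicate 2. Summits outside genes exceeded WT RNase R- by 0.881 points without WT RNase R+ replicate 2, by 1.07 without WT RNase R- replicate 2 and by 2.65 without WT RNase R+ replicate 1.

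The share of regions in no other list was 49.8% when 50% of a region had to be covered, 60.6% with the 2000 strongest peaks of each other list, and 29.4% among regions in both replicates. The share of tandem regions was 75.2% with a match of at least 90% and 88.8% with a match of at least 70%. Since the lists hold no reads, a region that was not called in a library may still carry signal there.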
